A study of Mus musculus with 8 samples.

Results

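The replication-dependent histone genes encode the core histones H2A, H2B, H3 and H4 that package newly copied DNA. They were taken from the count table by name, as every row whose symbol begins with Hist1h, Hist2h, Hist3h, Hist4h, H2ac, H2bc, H3c or H4c and does not contain "-ps". The rule found 60 of the 54188 genes in the table, namely 19 H2A, 17 H2B, 12 H3 and 12 H4 genes. By chromosome, 50 carry names of the Hist1 set on chromosome 13 and 10 carry names of the Hist2 set on chromosome 3. No linker histone H1 and no Hist3 or Hist4 gene was caught, since the table lists those under other symbols. The annotation calls 58 of the 60 protein-coding and 2, H2ac14 and Hist1h2al, pseudogenes.

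The 8 RNA-seq libraries were made from sanroque mice, from CD11b+Gr-1hi and CD11b+Gr-1lo cells that were sorted out of spleen (SP) or bone marrow (BM), with 2 libraries per group. All mice were homozygous for the san allele of Roquin, an RNA-binding protein, on a C57BL/6 background at about 20 weeks of age, so no group was wild type. The labels call the Gr-1hi cells G-MDSC and the Gr-1lo cells M-MDSC, which are granulocytic and monocytic myeloid-derived suppressor cells, and they list every mouse as female. Libraries 5 and 6 are SP Gr-1hi, 7 and 8 SP Gr-1lo, 9 and 10 BM Gr-1hi, and 11 and 12 BM Gr-1lo, by the numbers in the labels. The methods speak of independent biological replicates, but the labels do not say which mouse gave which library, so p-values measure the spread between these libraries only.

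In dividing cells these genes are switched on as DNA synthesis starts and their mRNAs are destroyed when it ends. Most of the mRNAs end in a short stem-loop in place of a poly(A) tail, which the stem-loop-binding protein SLBP holds during processing, export and translation. A minority of the genes can also give polyadenylated mRNAs, through a downstream poly(A) signal or through splicing, and such forms are known from cells that have stopped dividing. The libraries were made with a kit that selects polyadenylated mRNA, so an mRNA that ends in the stem-loop is captured poorly, and the levels given here are levels in a poly(A)-selected library.

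The stem-loops are shown because they mark a 3′ end without a poly(A) tail. How far this end set the levels of the members in these libraries was not tested. The search was for a stem of 6 bases that begins with GG, a loop of 4 and the reverse complement of the stem. It was found after the stop codon of an annotated transcript in 39 of the 58 coding members, starting 22 to 59 bases past it. Of the 19 coding members without one, 15 have an annotation that ends within 40 bases of the stop codon. The 39 members used 8 different sequences, of which 3 are given here for 4 members, in DNA letters with the stem in capitals and the loop in lower case (GENCODE M21 transcripts, GRCm38.p6).
H2ac18, chr3:96246032-96246047, + strand: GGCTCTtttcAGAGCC
H3c3, chr13:23745047-23745062, - strand: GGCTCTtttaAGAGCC
H4c9, chr13:22040966-22040981, - strand: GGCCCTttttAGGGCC
H2bc6, chr13:23585531-23585546, - strand: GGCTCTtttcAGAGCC
The form printed for H2ac18 and H2bc6 was the most common, in 21 members, and that of H3c3 occurred in 5 members. The GG at the start was required by the search, and the 8 forms differ in the stem or the loop. The stem of H4c9 occurred among the 39 in H4 genes only.

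CCAAT and other promoter motifs were common in front of these genes. The promoters below are shown because H2ac18, Hist1h2br and H2bc6 were high in Gr-1hi cells, H3c3 was higher in Gr-1lo cells, and H4c9 was at a like level in both subsets of BM. Each is the 150 bases before the start site in RefSeq on GRCm38.p6, read 5′ to 3′ on the strand of the gene, with CCAAT, the octamer ATTTGCAT and TATAAA on either strand in capitals. H2bc6 has 2 start sites in RefSeq, and the one nearer to its coding sequence is shown.
H2ac18, chr3:96245347-96245496, + strand: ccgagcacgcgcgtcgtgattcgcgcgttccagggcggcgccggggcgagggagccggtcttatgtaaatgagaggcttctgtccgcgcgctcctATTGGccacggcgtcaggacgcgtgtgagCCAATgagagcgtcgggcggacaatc
Hist1h2br, chr13:21833593-21833742, + strand: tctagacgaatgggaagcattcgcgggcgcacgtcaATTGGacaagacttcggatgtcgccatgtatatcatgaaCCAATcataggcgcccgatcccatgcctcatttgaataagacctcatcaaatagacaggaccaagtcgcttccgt
H2bc6, chr13:23585971-23586120, - strand: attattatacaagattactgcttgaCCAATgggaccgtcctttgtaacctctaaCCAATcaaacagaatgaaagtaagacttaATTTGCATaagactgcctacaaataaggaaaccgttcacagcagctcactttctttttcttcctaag
H3c3, chr13:23745522-23745671, - strand: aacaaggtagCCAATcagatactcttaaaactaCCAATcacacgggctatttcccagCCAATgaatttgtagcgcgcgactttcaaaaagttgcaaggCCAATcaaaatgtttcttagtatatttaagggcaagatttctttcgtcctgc
H4c9, chr13:22041363-22041512, - strand: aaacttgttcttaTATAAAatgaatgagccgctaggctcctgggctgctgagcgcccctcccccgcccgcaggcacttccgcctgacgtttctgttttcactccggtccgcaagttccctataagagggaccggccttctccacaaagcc
Of the members, 53 matched in RefSeq and gave 54 windows, each of 250 bases before and 50 after the start. CCAAT on either strand was in 46 of the 54 windows, or 85.2%, against 37.4% of all 32851 windows in the table, and at least 2 copies were in 77.8% against 11.7%. It was in every H2A, H2B and H3 window but in 3 of the 11 H4 windows. The octamer was in 13 windows, or 24.1%, against 1.74% of all windows, and these were 6 H2A and 7 H2B windows. TATAAA was in 55.6% against 13.6%. The motifs may share letters with each other, near-identical copies give near-identical windows, and a match is a description of the letters only.

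Depth ranged from 33453580 to 68316154 counts per library, and where a library had no count the limit was 3 counts, or 0.0348 to 0.124 CPM, which covers counting error only. Levels are CPM after TMM scaling. Ly6g, a neutrophil surface gene, was at 330 to 801 CPM in Gr-1hi and 3.07 to 8.23 CPM in Gr-1lo libraries, Csf1r, the receptor of monocytes, at 133 to 375 and 436 to 754 CPM, and Itgam, which encodes CD11b, at no less than 734 CPM in any library. Xist was at 363 CPM in library 5 and 209 CPM in library 7 but at no more than 0.102 CPM in the other 6, whereas the Y-linked Ddx3y was at 33.7 to 82.6 CPM in every library except library 5, which had no count. The labels of female mice therefore did not hold for all libraries and library 7 carried both genes. The counts of calls and the summed level are also given without libraries 5 and 7, and calls on named genes that were lost without them are stated. Scaling factors were 0.724 to 0.863 in Gr-1hi and 1.26 to 1.30 in Gr-1lo libraries, so the choice of scaling moves every comparison of the subsets, as stated beside those results.

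The summed level of the 60 genes was higher in Gr-1hi than in Gr-1lo libraries of both tissues, while single members went either way. It was 417 and 373 CPM in the SP Gr-1hi libraries and 335 and 248 CPM in the BM Gr-1hi libraries. The sum was 117 and 79.1 CPM in SP Gr-1lo and 88.6 and 95.2 CPM in BM Gr-1lo. The subsets did not overlap in either tissue, and the log2 ratio of Gr-1lo to Gr-1hi was -1.67 in BM and -2.01 in SP, or -0.86 and -1.41 when libraries were scaled by size only. Without libraries 5 and 7 the ratio in SP was -2.24. Without H2ac18 and H2ac19, the highest members, it was -0.80 in BM and -1.44 in SP with TMM but 0.01 and -0.84 by library size only, so the direction in BM outside this pair depends on the scaling. In bulk RNA, fewer cells of a type and less RNA per cell cannot be told apart.

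**Figure D1:**
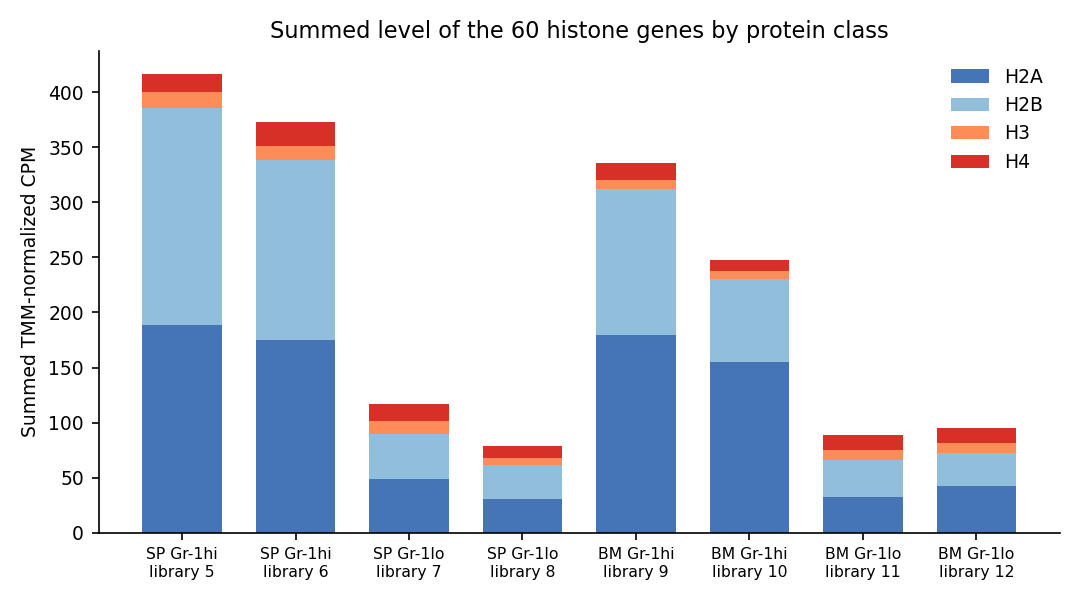
Summed TMM-normalized CPM of the 60 histone genes in each of the 8 libraries, with the H2A, H2B, H3 and H4 genes stacked from 0. The 4 Gr-1hi libraries reach 248 to 417 CPM and the 4 Gr-1lo libraries 79.1 to 117 CPM, and almost all of the gap lies in H2A and H2B.

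This difference came from the H2A and H2B genes. H2A genes summed to 182 ± 10.2 CPM in SP Gr-1hi and 39.9 ± 12.97 CPM in SP Gr-1lo, and to 167 ± 17.3 and 37.7 ± 6.93 CPM in BM (SD, n = 2 each). H2B genes summed to 180.3 ± 23.3 and 35.7 ± 6.41 CPM in SP and to 103 ± 40.4 and 31.9 ± 2.36 CPM in BM. The nucleosome holds the 4 core histones in equal number, but here the H3 and H4 genes took small shares. H3 genes summed to 13.6 ± 0.988 CPM in SP Gr-1hi, 9.37 ± 4.29 in SP Gr-1lo, 8.12 ± 0.680 in BM Gr-1hi and 8.44 ± 0.0247 in BM Gr-1lo. H4 genes summed to 18.9 ± 3.30, 13.1 ± 3.16, 12.6 ± 3.36 and 13.8 ± 0.141 CPM in the same order. For H3 the log2 ratio of Gr-1lo to Gr-1hi was 0.06 in BM and -0.54 in SP with TMM, but 0.87 and 0.06 by library size only and -0.09 and -0.67 with RLE scaling, so no direction is given for the H3 sum. The H4 sum likewise moved from 0.13 and -0.54 with TMM to 0.95 and 0.07 by library size only and -0.02 and -0.67 with RLE. The shares do not depend on the scaling. H3 genes took 2.56% to 3.47% of the summed level in Gr-1hi and 8.01% to 10.6% in Gr-1lo libraries, and H4 genes 3.98% to 5.71% and 13.1% to 15.5%.

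H2ac18 and H2ac19 made up the largest block. These neighbouring Hist2 H2A genes (chr3:96245497-96246082, + strand, and chr3:96239749-96240276, - strand) are near-identical copies. Of their 101-base stretches, the length of 1 read, 88.1% of those of H2ac18 and all of those of H2ac19 occur in the other copy. They had 9703 counts each over the 8 libraries and differed by 1 to 12 counts within a library, which is within counting noise in 8 of 8 libraries. The values of each copy may therefore be reads of either, or the same reads counted for both. In the latter case the share of the pair and the sums that hold both copies count those reads again, which was not tested. All stretches of H2ac18 also lie in the gene model Gm20633, counting matches on either strand, so none is particular to H2ac18. The gene model Gm20634, which overlaps H2ac18 on the same strand, had similar levels. H2ac18 was at 81.4 and 73.6 CPM in SP Gr-1hi, 77.2 and 67.3 in BM Gr-1hi, 5.19 and 4.52 in SP Gr-1lo, and 3.95 and 3.23 in BM Gr-1lo. The subsets were far apart and the tissues close within each subset. Its log2 FC of Gr-1lo against Gr-1hi was -4.33 ± 0.15 (SE) in BM and -4.002 ± 0.14 in SP (adjusted p = 1.2e-07 and 3.2e-07), and H2ac19 gave -4.31 and -4.03. The pair took 39.2% to 54.2% of the summed level of all members in Gr-1hi but 6.83% to 11.4% in Gr-1lo libraries. Counting 1 copy of each near-identical pair, the log2 ratio of the summed level was -1.25 in BM and -1.71 in SP.

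Hist1h2al (chr13:51202727-51203065, - strand), an H2A pseudogene far from the other chromosome 13 members, followed the same course at a lower level. It was at 7.41 and 6.28 CPM in SP Gr-1hi, 7.85 and 7.22 in BM Gr-1hi, and at 0.410 to 0.672 CPM in the Gr-1lo libraries. Its log2 FC was -4.08 ± 0.24 in BM and -3.51 ± 0.23 in SP (adjusted p = 9.1e-07 and 2.9e-06). It shared 17.99% of its stretches with other members, the most with H2ac19, and whether its counts are its own reads was not tested.

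**Figure D2:**
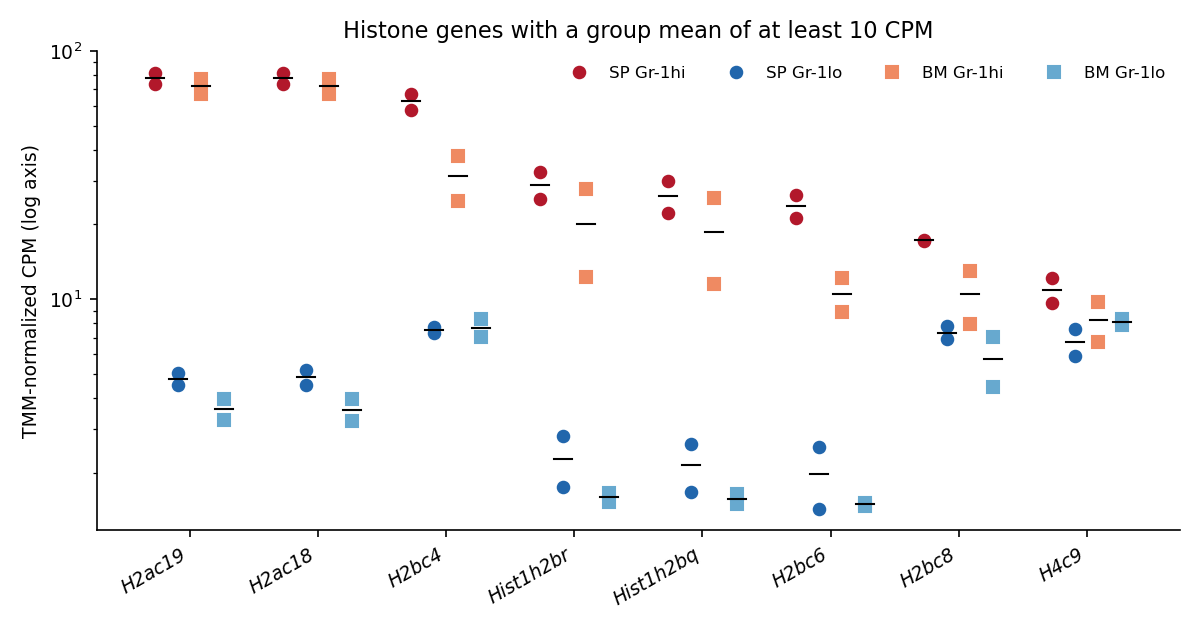
TMM-normalized CPM (log axis) of the 8 histone genes with a mean of at least 10 CPM in a group, with 1 point per library and a line at the mean of the 2 libraries. H2ac18 and H2ac19 stand highest in Gr-1hi and fall to 3.23 to 5.19 CPM in Gr-1lo libraries, while H4c9 stays between 5.91 and 12.2 CPM in all 8.

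The H2B genes with a mean of at least 10 CPM in a group were H2bc4, H2bc6, Hist1h2bq, Hist1h2br and H2bc8. All but H2bc8 have an annotated spliced transcript. CPM takes no account of length. Per kilobase of exon in SP Gr-1hi, H2bc8 (27.95 CPM), H2bc12 (9.2) and H2bc11 (7.04), all unspliced, stood above H2bc6 (5.35) and Hist1h2bp (4.33). H2bc4 (54.2), Hist1h2br (13.07) and Hist1h2bq (12.92) stood above H2bc12 and H2bc11. The unspliced H2bc7 and H2bc15 were called lower in Gr-1lo cells of both tissues, and H2bc1, H2bc3 and H2bc8 in SP only. GENCODE M21 gives 5 members a coding transcript of more than 1 exon, all of them H2B genes on chromosome 13, and this grouping was made after the values were seen. In H2bc4, Hist1h2bp, Hist1h2bq and Hist1h2br the coding exon joins a later exon, across introns of 422 to 7554 bases. In H2bc6 the extra exon lies upstream, across an intron of up to 34949 bases, and the last exon runs 1906 bases past the stop codon, beyond the stem-loop. Each of the 5 has AATAAA, the letters of a poly(A) signal, after the stop codon of such a transcript. Their summed level was 159 and 129.6 CPM in SP Gr-1hi, 106 and 58.6 in BM Gr-1hi, 16.6 and 13.2 in SP Gr-1lo, and 13.9 and 12.3 in BM Gr-1lo.

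H2bc4 (chr13:23684199-23692908, + strand) was the highest of them, with 67.1 and 58.1 CPM in SP Gr-1hi, 37.9 and 25.0 in BM Gr-1hi, 7.28 and 7.71 in SP Gr-1lo, and 8.36 and 7.03 in BM Gr-1lo. Of its stretches, 25.3% occurred in another member, the most in H2bc8. The Gr-1hi libraries of the tissues did not overlap for H2bc4, while the Gr-1lo libraries did. The log2 FC of Gr-1lo against Gr-1hi was -2.03 ± 0.20 in BM and -3.06 ± 0.20 in SP (adjusted p = 2.0e-05 and 3.7e-06). The difference between these values, -1.03 ± 0.27, had an adjusted p of 0.038 but passed in only 5 of the 15 alternative settings run, and without libraries 5 and 7 it did not.

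H2bc6 (chr13:23583670-23621124, - strand) was at 26.4 and 21.2 CPM in SP Gr-1hi, 12.2 and 8.88 in BM Gr-1hi, and 1.44 to 2.53 CPM in the Gr-1lo libraries. Its log2 FC was -2.82 ± 0.29 in BM and -3.62 ± 0.28 in SP (adjusted p = 2.7e-05 and 7.8e-06). Of its stretches, 3.06% occurred in another member and 8.91% in H1f4, a linker histone gene outside the members. Hist1h2br (chr13:21833743-21837530, + strand) was at 32.5 and 25.4 CPM in SP Gr-1hi, 27.8 and 12.3 in BM Gr-1hi, and 1.53 to 2.81 in the Gr-1lo libraries. Its log2 FC was -3.65 ± 0.42 in BM and -3.69 ± 0.41 in SP (adjusted p = 8.9e-05 and 8.6e-05), and the near-identical Hist1h2bq gave -3.57 and -3.63. Both Gr-1hi groups of these genes lay above every Gr-1lo library. Hist1h2bp, the lowest of the 5, was called in SP (-1.66 ± 0.47, adjusted p = 0.012) and not in BM (-1.14 ± 0.51, adjusted p = 0.07).

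H2bc8 (chr13:23571396-23572013, + strand), whose annotated transcript is a single exon with a stem-loop, also reached a mean of 10 CPM. Of its stretches, 44.8% occurred in another member, and 39.6% occurred in H2bc4. Whether its counts are its own reads was not tested. H2bc8 was at 17.4 and 17.2 CPM in SP Gr-1hi, 12.97 and 7.97 in BM Gr-1hi, 6.90 and 7.78 in SP Gr-1lo, and 7.05 and 4.44 in BM Gr-1lo. It fell in SP by 1.23 ± 0.26 on the log2 scale (adjusted p = 0.0027), a call that was lost by library size only and without libraries 5 and 7, with a range of -1.37 to -0.63 over the alternative settings, and in BM the log2 FC of -0.87 ± 0.27 (adjusted p = 0.017) was under 2-fold. Among unspliced members with AATAAA past the stop codon, H4c14 (chr3:96261682-96263311, - strand) was at 2.05 and 1.53 CPM in SP Gr-1hi and 0.380 and 0.139 in SP Gr-1lo, a log2 FC of -2.87 ± 0.51 (adjusted p = 0.00090), with 0.598 and 0.289 CPM in BM Gr-1hi and 0.225 and 0.227 in BM Gr-1lo.

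Not every H2B gene was higher in Gr-1hi cells. H2bc21 (chr3:96221119-96223738, + strand), a single-exon gene whose transcript runs 2192 bases past the stop codon with AATAAA and with no stem-loop found, was at 1.05 and 1.72 CPM in SP Gr-1hi, 1.38 and 1.32 in BM Gr-1hi, 4.37 and 4.38 in SP Gr-1lo, and 5.98 and 5.82 in BM Gr-1lo. It rose by 2.12 ± 0.25 on the log2 scale in BM and by 1.66 ± 0.24 in SP (adjusted p = 5.7e-05 and 0.00028), under every alternative setting run. H4c1, another unspliced member with AATAAA, had log2 FCs of 1.71 in BM, where it was called, and 0.92 in SP, where it was not. The summed level of the 8 such members had a log2 ratio of Gr-1lo to Gr-1hi of 0.32 in BM and -0.32 in SP with TMM. A poly(A) signal in the annotation thus went with a higher level in Gr-1hi cells for some members and with a lower level for others. H2bc18 (chr3:96269752-96270132, + strand) had no count in the BM Gr-1hi libraries and 24 counts in BM Gr-1lo, at least 4.01-fold higher when the empty group is set to 3 counts in all, a call lost without library 9 or 10, but all of its stretches also lie in the gene model Gm20628.

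Most H3 genes were low. Of the 12, 7 were called higher in Gr-1lo cells of BM and 3 in SP, where 33.1% and 27.4% of all genes tested were. H3c3 (chr13:23744973-23745602, - strand) was at 0 and 0.124 CPM in BM Gr-1hi and 0.758 and 0.982 in BM Gr-1lo, and at 0.121 and 0.223 in SP Gr-1hi and 1.03 and 0.498 in SP Gr-1lo. In BM this is 89 counts against 3, a ratio of 14.9 with an exact 95% counting interval of 4.92 to 73.4. H3c1 gave 55 counts against 2, a ratio of 13.8 (3.64 to 117), and H3c10 54 counts against 3, a ratio of 9.02 (2.93 to 45.1). Of the stretches of H3c10, 91.96% occurred in another member, beside 32.03% for H3c1 and 28.11% for H3c3. The intervals take each count as a separate read of that gene and do not cover shared reads. Whether the counts of these H3 genes are their own reads was not tested. In SP the log2 FC was 2.11 ± 0.67 for H3c3 (adjusted p = 0.020) and 1.67 ± 0.66 for H3c1 (adjusted p = 0.048). Neither passed without library 5, without library 7 or without both. H3c1 lost its SP call under 9 of 16 alternative settings in all, among them RLE, upper-quartile, DESeq2 and quantile-normalized TPM. Its log2 FC went down to 0.75. The call of H3c10 in BM was lost without library 9. A pair of Hist2 genes went the other way. H3c14 and H3c15, named after their values were seen, lie next to H2ac18 and H2ac19 on chromosome 3 and fell in Gr-1lo cells of both tissues. H3c14 was at 8.23 and 5.04 CPM in SP Gr-1hi and 1.77 and 1.15 in SP Gr-1lo, and its log2 FC in BM was -1.80 ± 0.35 and in SP -2.21 ± 0.34 (adjusted p = 0.0014 and 0.00041), and all of its stretches also lie in Gm20634.

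H4c9 (chr13:22040636-22041362, - strand) was the H4 gene with the highest level. It was at 9.70 and 12.2 CPM in SP Gr-1hi, 9.72 and 6.73 in BM Gr-1hi, 7.60 and 5.91 in SP Gr-1lo, and 8.32 and 7.86 in BM Gr-1lo. The BM subsets overlapped, with a log2 FC of -0.03 ± 0.21 (adjusted p = 0.92), and in SP the log2 FC was -0.70 ± 0.21 (adjusted p = 0.015), under 2-fold. Per kilobase of exon it was the first of the 60 members in BM Gr-1lo, with 11.1 CPM per kb, and H2bc8 was first in SP Gr-1lo, with 11.9. H2ac19 and H2ac18 were first and second in both Gr-1hi groups, with 147 and 132 CPM per kb in SP and 136 and 123 in BM, and H4c9 had 15.1 in SP and 11.3 in BM. H4c4 was at 0.0413 to 0.187 CPM in Gr-1hi and 0.324 to 0.775 CPM in Gr-1lo libraries, and its log2 FC in BM was 2.32 ± 0.74 and in SP 1.97 ± 0.72 (adjusted p = 0.019 and 0.036). The call of H4c4 in SP was lost under 5 of 16 alternative settings, namely DESeq2, quantile-normalized TPM, without library 5, without library 7 and without both, where the log2 FC went down to 0.63. Its call in BM was lost under 3, namely quantile-normalized TPM and without library 10 or 12, down to 0.76.

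The Hist1 H2A genes were low in each subset and many share reads. Of the 13 coding Hist1 H2A genes, 12 were tested and each had a positive log2 FC in BM with TMM scaling, from 0.14 up, but 5 were called there and 1 in SP, beside 33.1% and 27.4% of all genes tested. The median log2 FC of all genes in BM was 0.17 with TMM and 0.99 by library size only. Their summed level was 16.3 and 18.9 CPM in SP Gr-1hi, 16.3 and 12.3 in BM Gr-1hi, 35.6 and 19.6 in SP Gr-1lo, and 22.9 and 32.9 in BM Gr-1lo. Without libraries 5 and 7 the log2 ratio of this sum in SP went from 0.65 to 0.05. H2ac15 (chr13:21753435-21753827, - strand), which shared 10.2% of its stretches with other members, had 44 counts in BM Gr-1lo and none in BM Gr-1hi, at least 7.35-fold higher, and was at 0.151 and 0.223 CPM in SP Gr-1hi and 0.929 and 0.359 in SP Gr-1lo (log2 FC 1.72 ± 0.64, adjusted p = 0.042). The SP call of H2ac15 was lost under 10 of 16 alternative settings, including RLE, DESeq2 and leaving out library 5, 6, 7, 11 or 12, and was down to 0.70 at the lowest, while its BM call held in all 16. Over all 60 members, 25 had at least 50% of their stretches in another member, so the split of counts among them is uncertain.

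Across members, a call needed a change of 2-fold or more and an adjusted p no higher than 0.05, by edgeR over the 17650 genes tested. Of the members 58 passed the filter on low counts, and H2ac1 and H2ac21 did not. In BM, 18 of the 58, or 31.0%, were called higher in Gr-1lo cells, and 33.1% of all genes tested were. Another 11, or 18.97%, were called lower, against 24.2% of all genes. In SP, 6 members, or 10.3%, were called higher and 17, or 29.3%, lower, against 27.4% and 22.3% of all genes. The shares in BM and the lower share in SP are near those of all genes, so what differs from gene to gene is which members stand on each side. The same 11 members were called lower in both tissues and the same 6 higher, and none was called in opposite directions. The 11 include both copies of the near-identical pairs H2ac18 and H2ac19, and Hist1h2bq and Hist1h2br. The matching share over all genes was not counted, so this overlap is not read as particular to the members. By library size only the calls were 30 higher and 7 lower in BM and 22 and 11 in SP, and without libraries 5 and 7 they were 21 and 11 in BM and 1 and 18 in SP.

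At the stricter call of an adjusted p under 0.01 and an FC over 8, 5 members were higher and 5 lower in BM, against 10.1% and 6.56% of all genes tested, and 0 were higher and 7 lower in SP, against 2.93% and 4.44%. The 7 in SP were H2ac18, H2ac19, Hist1h2al, Hist1h2bq, Hist1h2br, H2bc6 and H2bc4. By class, H3 genes were called higher 7 times and lower 2 times in BM, and H2B genes higher 2 times and lower 6 times. In SP H3 genes were called higher 3 times and lower 2 times, and H2B genes higher 1 time and lower 10 times. The 5 genes with a spliced transcript were called lower in 4 cases in BM and 5 in SP. Of the 20 Hist1 H3 and H4 genes, 11 were called higher in BM and 4 in SP, and none lower.

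The median log2 FC of the 58 members was 0.64 in BM and 0.02 in SP, beside 0.17 and 0.09 for all genes tested, and setting the genes without a count in BM Gr-1hi to their bound left the BM median at 0.64. By library size only the medians of all genes were 0.99 in BM and 0.69 in SP and those of the members 1.44 and 0.62. Relative to all genes the members' median was thus 0.46 higher in BM and 0.07 lower in SP with TMM, and 0.45 higher and 0.07 lower by library size only. In SP the members' median moved with single libraries, and leaving out library 5 gave -0.15, library 6 gave 0.49, library 7 gave -0.43 and library 8 gave 0.32. Without libraries 5 and 7 it was -0.66, beside 0.11 for all genes.

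**Figure D3:**
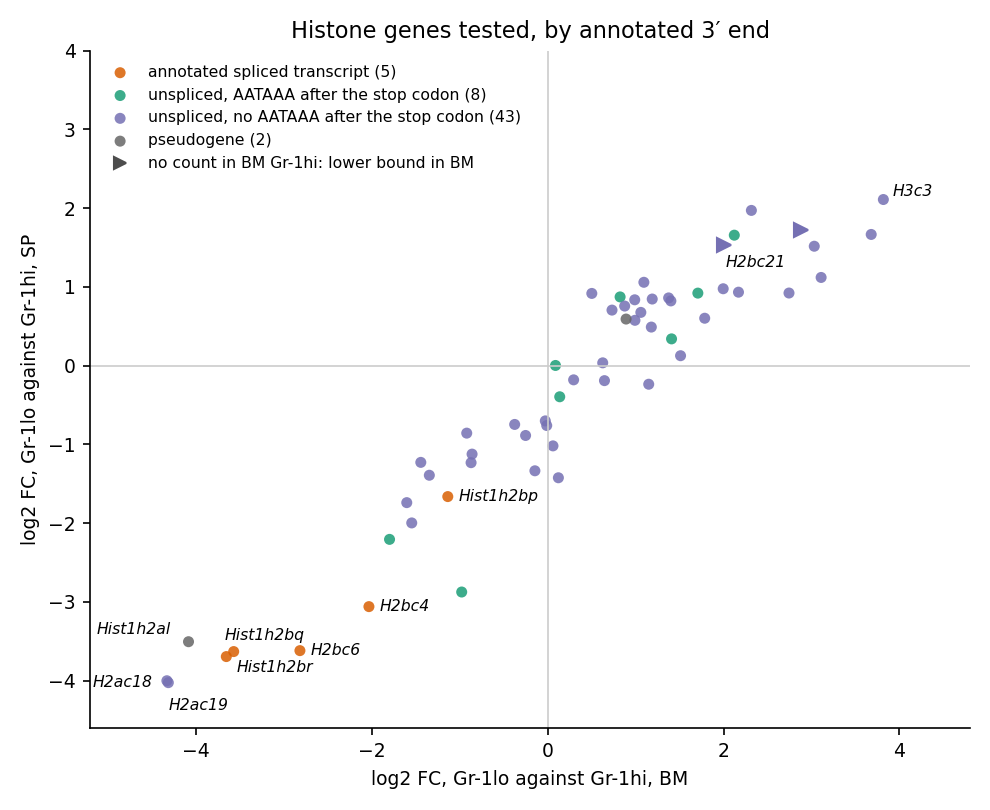
Log2 FC of Gr-1lo against Gr-1hi cells in BM (x axis) and SP (y axis) for the 58 histone genes tested, coloured by the annotated 3′ end, with genes that had no count in BM Gr-1hi drawn as triangles at their lower bound. All 5 genes with a spliced transcript, a group formed after the values were seen, lie below 0 on both axes. H2ac18 and H2ac19 lie lowest in both, and H3c3 and H2bc21 are among those above 0 on both.

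The difference between the subsets was compared between tissues by the interaction, SP minus BM. It was negative for 51 of the 58 members, with a median of -0.52 beside -0.03 for all genes, and the comparison shares the Gr-1hi libraries with that of the tissues below. Only H2bc4 was called, and lower, against 7.74% of all genes tested, and 0 members were called higher, against 2.00%. Unadjusted, 4 of the 58 members had p values no higher than 0.05, beside 5703 of all 17650 genes. Without libraries 5 and 7 none was called.

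Between tissues the Gr-1lo cells showed no called member. The 58 members had a median log2 FC of 0.11 for SP against BM, beside -0.01 for all genes. No member was called in edgeR, where 3.84% of all genes tested were called higher and 0.215% lower, and none was called in DESeq2. Unadjusted, 2 of the 58 members had p values no higher than 0.05, beside 3545 of all 17650 genes, namely H2ac18 (0.43 ± 0.14, adjusted p = 0.14) and H2ac19 (0.40 ± 0.14, adjusted p = 0.16). Libraries 7 and 8 themselves differed, with the summed levels of 117 and 79.1 CPM given above, and without libraries 5 and 7 the log2 ratio of the sums went from 0.09 to -0.22.

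In Gr-1hi cells 54 of the 58 members had a positive log2 FC for SP against BM, but few passed the test. The median log2 FC was 0.72, beside 0.03 for all genes, or 0.70 with the genes that had no count in BM at their bound. Called higher were 4 members, or 6.90%, against 14.0% of all genes, and 0 were called lower, against 1.48%, in edgeR and in DESeq2. Unadjusted, 9 of the 58 members had p values no higher than 0.05, beside 8015 of all 17650 genes. The 4 were H2ac15, H4c14, H2bc3 and H2bc6. H2bc6 had a log2 FC of 1.17 ± 0.25 (adjusted p = 0.0094) and H4c14 of 1.99 ± 0.52 (adjusted p = 0.019). H2bc3 was at 1.75 and 1.95 CPM in SP and 0.710 and 0.661 in BM (1.42 ± 0.39, adjusted p = 0.024). H2ac15 had 12 counts in SP and none in BM, at least 3.16-fold higher. All 4 calls were lost without library 5 and without library 10, a BM Gr-1hi library. Without library 10 no member was called, and without library 5 the 2 members called were Hist1 H3 or H4 genes and none of these 4. Over the alternative settings run the call of H2ac15 was lost under 8 of 15, that of H2bc3 under 5 of 16 and those of H2bc6 and H4c14 under 3 of 16 each. Without libraries 5 and 7 there were 3 calls, 1 of them a Hist1 H3 or H4 gene, the calls of H2ac15 and H4c14 were lost, and the members' median was 0.70.

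**Figure D4:**
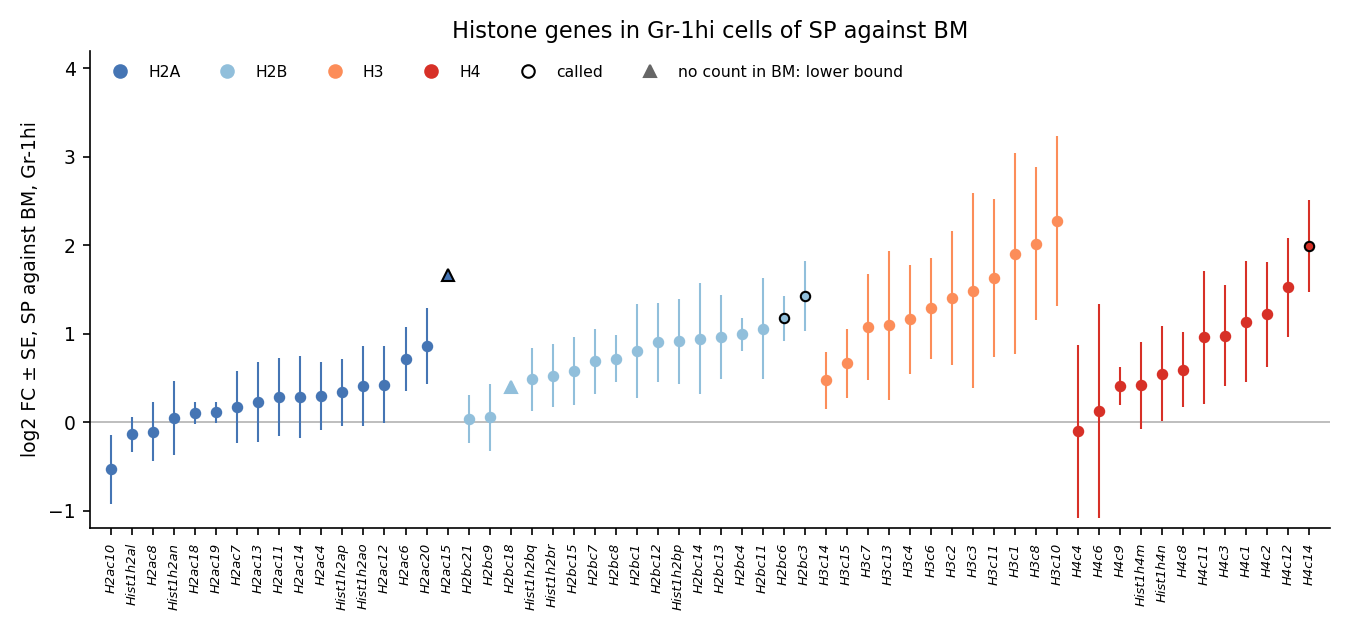
Log2 FC ± SE of SP against BM in Gr-1hi cells for the 58 histone genes tested, grouped by class and ordered within it, with called genes outlined in black and genes without a count in BM drawn as triangles at their lower bound. Most genes lie above 0 but 4 are called.

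By class, the H3 genes had a median log2 FC of 1.35 for SP against BM in Gr-1hi cells, the H2B genes 0.90, the H4 genes 0.78 and the H2A genes 0.28. H2ac18 and H2ac19 were close in the tissues, with log2 FCs of 0.10 ± 0.12 and 0.11 ± 0.12 (adjusted p = 0.56 and 0.51). Markers of other cells moved with this comparison. The 10 B cell genes summed to 385 and 559 CPM in SP Gr-1hi, 27.2 and 29.9 in BM Gr-1hi, 71.9 and 90.5 in SP Gr-1lo, and 11.7 and 12.5 in BM Gr-1lo, and 10 of 10 were called higher in SP Gr-1hi. The 10 T cell genes summed to 87.3 and 142 CPM in SP Gr-1hi and 7.31 and 10.8 in BM Gr-1hi with 9 of 10 called. The 10 erythroid genes summed to 219 and 735 CPM and to 35.9 and 44.1 CPM with 7 of the 8 tested called, and the 8 plasma cell genes to 288 and 392 CPM and to 101 and 102 CPM with 7 of the 7 tested called. Of the 5 dendritic cell genes 3 were called higher and 1 lower. No B or T cell gene was at 0 in a Gr-1hi library, whereas 1 erythroid gene was at 0 in library 5, 1 in library 9 and 2 in library 10. The part of these cells in the histone levels was not tested.

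The genes that make and handle histone mRNA were next set beside the members. Of 12 genes for histone transcription and 3′ processing, 6 were called higher and 1 lower in Gr-1lo cells of BM, and 4 higher and 0 lower in SP. Of all genes tested, 33.1% were called higher and 24.2% lower in BM, and 27.4% and 22.3% in SP. These shares also stand beside the lists below. Slbp, which encodes the stem-loop-binding protein, was at 34.4 and 38.3 CPM in SP Gr-1hi, 42.3 and 41.7 in BM Gr-1hi, 77.0 and 68.3 in SP Gr-1lo, and 84.5 and 87.1 in BM Gr-1lo. Its log2 FC was 1.03 ± 0.10 in BM and 0.998 ± 0.10 in SP (adjusted p = 1.5e-05 and 2.5e-05). Npat, the coactivator of histone genes at the start of S phase, was higher by 1.83 ± 0.12 on the log2 scale in BM and by 1.34 ± 0.12 in SP (adjusted p = 2.0e-06 and 1.6e-05). Both genes were thus higher in the subset in which the summed histone level was lower. The medians over the list were 0.83 in BM and 0.51 in SP.

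Histone chaperones, which carry new histones to DNA, were higher in Gr-1lo cells too. Of 10 such genes 9 were called higher in BM and 8 in SP, with medians of 2.36 and 1.95. Nasp, a chaperone of H3 and H4, was at 11.7 and 9.63 CPM in SP Gr-1hi, 8.71 and 10.0 in BM Gr-1hi, 50.9 and 43.7 in SP Gr-1lo, and 60.5 and 74.5 in BM Gr-1lo. Asf1b, another chaperone of H3 and H4, was higher by 2.60 ± 0.26 on the log2 scale in BM and by 2.77 ± 0.27 in SP. Chaf1a and Chaf1b, subunits of the chromatin assembly factor that follows the replication fork, had log2 FCs of 3.03 ± 0.19 and 2.12 ± 0.17 in BM and of 2.46 ± 0.18 and 2.26 ± 0.17 in SP.

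The genes of S phase and mitosis moved together. All 24 genes for S phase and DNA replication were called higher in Gr-1lo cells of each tissue, with medians of 3.601 in BM and 2.85 in SP, and all 12 mitosis genes, with medians of 2.29 and 2.38. The summed level of the S phase list was 248 and 264 CPM in SP Gr-1hi, 201 and 281 in BM Gr-1hi, 1740.0 and 1586 in SP Gr-1lo, and 2017 and 2287 in BM Gr-1lo. Pcna, the sliding clamp of DNA polymerases, was higher by 3.23 ± 0.11 on the log2 scale in BM and by 2.47 ± 0.10 in SP, Mcm5, a subunit of the replicative helicase, by 3.69 ± 0.25 and 3.24 ± 0.24, and Rrm2, which makes deoxynucleotides, by 2.97 ± 0.25 and 3.08 ± 0.25. Mki67 and Top2a, genes of cycling cells, had log2 FCs of 2.08 ± 0.19 and 2.55 ± 0.24 in BM and of 2.17 ± 0.19 and 2.51 ± 0.24 in SP. In the same comparison the sum of the 20 Hist1 H3 and H4 genes had a log2 ratio of 0.53 in BM and -0.11 in SP, or 1.35 and 0.50 by library size only. The histone members, which are S phase genes by function, were thus divided where the S phase list was not.

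**Figure D5:**
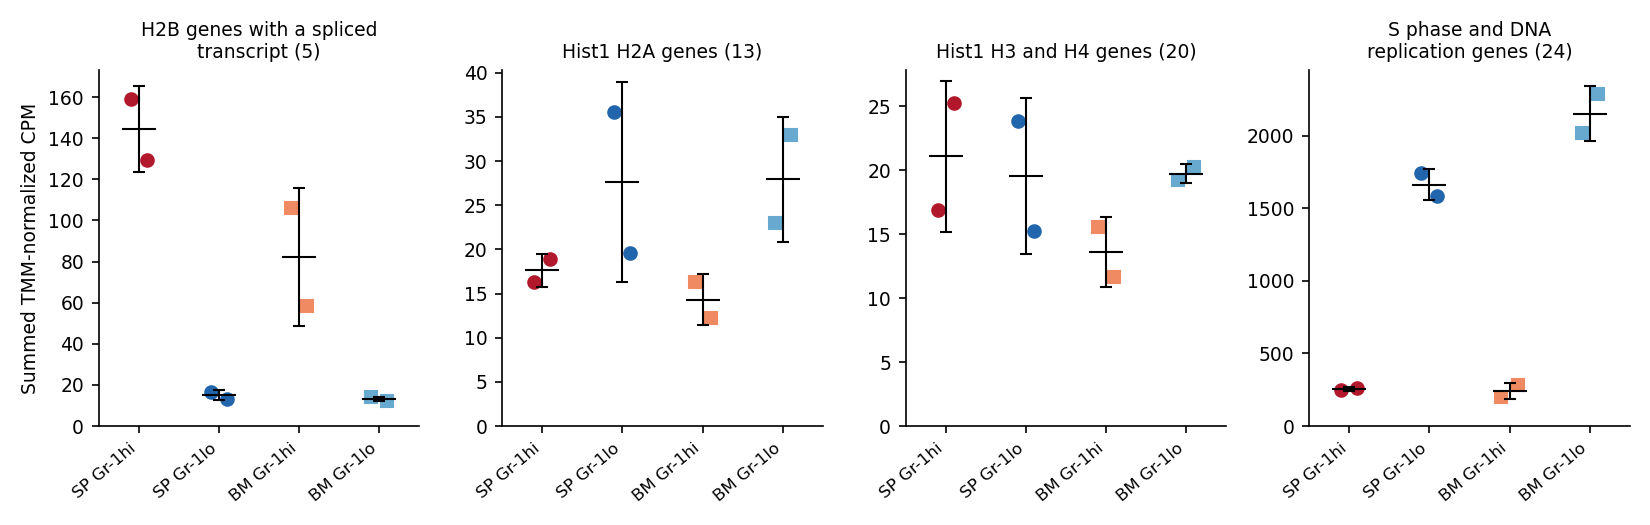
Summed TMM-normalized CPM per library (points), with mean and SD of the 2 libraries, for the 5 H2B genes with a spliced transcript, the 13 coding Hist1 H2A genes, the 20 Hist1 H3 and H4 genes and 24 genes of S phase and DNA replication. Each panel has its own axis from 0, and the first and the last panel run in opposite directions between Gr-1hi and Gr-1lo. The group of the first panel was formed after the values were seen, so its direction is a description only.

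Replication-independent histone genes, most of which are expressed through the cell cycle or in resting cells and give polyadenylated mRNAs, were mixed. Of 11 tested, 6 were called higher and 0 lower in Gr-1lo cells of BM, and 6 higher and 1 lower in SP. Among all genes tested, 33.1% were called higher in BM and 27.4% in SP. H2az1 was higher by 1.29 ± 0.18 on the log2 scale in BM and by 1.42 ± 0.18 in SP, and H2ax, the variant marked at DNA breaks, by 2.18 ± 0.18 and 2.02 ± 0.18. The linker histone H1f0 had log2 FCs of 2.26 ± 0.18 and 2.71 ± 0.19. H3f3a and H3f3b, which both encode H3.3, had values of -0.85 ± 0.09 and -0.69 ± 0.19 in BM and of -0.43 ± 0.09 and -0.52 ± 0.19 in SP, all under 2-fold. The list summed to 1906 and 2387 CPM in SP Gr-1hi, 2388 and 2357 in SP Gr-1lo, 2667 and 2776 in BM Gr-1hi, and 2646 and 2845 in BM Gr-1lo, far above the 60 members. The log2 ratio of Gr-1lo to Gr-1hi was 0.01 in BM and 0.14 in SP.

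Cell type and stage markers moved with the subsets as well. The 5 primary granule genes, which mark early neutrophil precursors, summed to 12.4 to 43.3 CPM in Gr-1hi and 1200.1 to 3289 CPM in Gr-1lo libraries, with 5 of 5 called higher in both tissues. Elane had a log2 FC of 7.53 ± 0.39 in BM and Mpo of 6.22 ± 0.54. The 5 mature neutrophil genes summed to 22553 to 28075 CPM in Gr-1hi and 607 to 733 CPM in Gr-1lo libraries, with 5 of 5 called lower, and 5 of the 6 monocyte genes were called higher in Gr-1lo cells of each tissue. Of the 5 secondary granule genes 5 were called lower in BM and 4 in SP. None of these genes was at 0 in a library. How far the makeup of each gate sets the histone levels was not tested.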

How the data were processed

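The authors sorted the cells, made stranded poly(A)-selected libraries and sequenced them as 101-base paired reads. Per the submitters' processing notes and the methods, reads were checked with FastQC, aligned with STAR to GRCm38 and counted per gene with featureCounts, and the deposited values are raw counts per gene. Whether reads that map to several genes were counted is not given in the sources used here, and this bears on near-identical histone genes. Groups came from the sample titles. Counts of all 54188 genes were filtered with filterByExpr, which left 17650, scaled with TMM and fitted with edgeR 4.0.16 (quasi-likelihood, robust, 1 term per group, 8 libraries, 4 residual degrees of freedom, R 4.3.3). Tests were two-sided with Benjamini-Hochberg adjustment over all genes tested. The study tested quantile-normalized TPM, which was run here as an alternative with limma 3.58.1 on log2(value + 1), and DESeq2 1.42.0 was another. The other alternatives were RLE, upper-quartile and library-size scaling, no filter, only the 4 libraries compared, each library left out, and libraries 5 and 7 left out. The fit was tested on simulated data. Depth was 33453580 to 68316154 counts per library, so 3 counts were 0.0348 to 0.124 CPM. Stretches of 101 bases were compared between GENCODE M21 transcripts (GRCm38.p6). Named members were those with a mean of at least 10 CPM in a group and, per comparison and direction, the 5 called members with the largest change, and others are said to be chosen after their values were seen or stand as examples of their class. The members and gene lists were chosen with earlier results of these data known.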

Additional observations from a re-analysis of the deposited data

Results flagged for a closer look

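H2bc4 stood out because its difference between Gr-1lo and Gr-1hi cells was not the same in the tissues by a test of that difference. The log2 FC was -2.03 ± 0.20 in BM and -3.06 ± 0.20 in SP, and the interaction was -1.03 ± 0.27 (edgeR, adjusted p = 0.038). Its level in Gr-1hi cells was higher in both SP libraries than in both BM libraries. The interaction lost its call under 10 of 15 alternative settings, ranged from -1.27 to -0.64 over them, and had its highest adjusted p, 0.22, without libraries 5 and 7. B cell and T cell markers were higher in the SP Gr-1hi libraries too, and their part in this value was not tested.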

How the results depend on the processing

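Of 34 calls on named members, 20 held under every setting run, 14 were lost under at least 1 and 0 turned direction. By library size only, 30 members were called higher and 7 lower in BM and 22 and 11 in SP, and the log2 ratios of the summed level were -0.86 and -1.41. Called higher in SP were 3 members with RLE, 3 with upper-quartile scaling, 2 with DESeq2, 3 with quantile-normalized TPM and 1 without libraries 5 and 7. With quantile-normalized TPM, 8 members were called higher in BM Gr-1lo, 1 in SP Gr-1hi against BM Gr-1hi, and 0 in the interaction. Without a filter 7 were called higher in SP Gr-1hi against BM Gr-1hi and 0 in the interaction, and without libraries 5 and 7 the interaction gave 0. The summed level in Gr-1lo cells, SP against BM, went to -0.22 without libraries 5 and 7. In BM it was -1.31 without the highest member, and with each near-identical pair counted once, a choice made after seeing the data, -1.25 in BM and -1.71 in SP. Leaving out 1 library at a time gave 10 to 20 members higher and 9 to 15 lower in BM, 1 to 17 higher and 12 to 20 lower in SP, 0 to 7 higher between Gr-1hi groups and 0 to 1 in the interaction. BM fell to 10 higher without library 9 or library 12, SP to 1 without library 5 or 7 and rose to 17 without library 8, and the Gr-1hi comparison gave 0 without library 10, 2 without library 5 and 7 without library 9. The log2 ratio of the summed level ranged from -1.87 to -1.43 in BM, -2.32 to -1.75 in SP, 0.24 to 0.67 between Gr-1hi groups and -0.22 to 0.35 between Gr-1lo groups. A group left with 1 library is assumed to vary like the others. The causes were not tested. No paired analysis was possible because the labels do not say which mouse gave which library. The study calls the BM cells autologous, so groups may share mice, while the fit treats the libraries as independent. With 2 libraries per group, small differences were not detectable.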
